A study of Mus musculus with 10 samples.

Results

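The antioxidant and glutathione genes described here are 35 genes, found by their symbols among the 55401 genes of the deposited expression table, and each of the 35 symbols matched 1 row. They cover the regulators NRF2, NRF1 and KEAP1 and the enzymes of glutathione, thioredoxin, superoxide and hydrogen peroxide metabolism. RNA was sequenced from E14, an established line of mouse embryonic stem cells (labelled mESC, source tissue Embryo). Wild-type cells, labelled as untreated, gave 4 libraries in 2 numbered sets. Cells carrying the ANKRD11 Y347A mutation, made by CRISPR/Cas9 editing, gave 6 libraries in 3 numbered sets, each set holding 2 libraries. ANKRD11 is a chromatin regulator with ankyrin repeats, and the comparison asks how expression in the mutant line differs from wild type. What a set stands for (clone, culture or day) is not labelled, so the spread between sets may be technical, and no label gives the medium or passage of the cells.

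NRF2, encoded by Nfe2l2, is a transcription factor that turns on detoxifying and antioxidant genes, and KEAP1 holds it in the cytoplasm and sends it to degradation until oxidants or electrophiles modify KEAP1. Glutathione is a small thiol made by a pair of ligases, used by peroxidases to reduce hydrogen peroxide and lipid peroxides and by transferases to tag foreign or reactive molecules, and it is recycled by glutathione reductase. Thioredoxin and its reductases run a parallel thiol system that recharges peroxiredoxins, which remove most of the hydrogen peroxide made in a cell, while superoxide dismutases convert superoxide to hydrogen peroxide.

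Of the 35 genes, 34 reached a mean of at least 1 TPM and were tested, 4 were higher in the mutant (Nfe2l2, Keap1, Gclc and Gpx3) and 10 were lower (Gss, Prdx1, Prdx2, Prdx3, Prdx6, Sod1, Cat, Gsta4, Gstm1 and Gstp1). TPM is the number of transcripts of a gene per 1000000 transcripts of the library. It is corrected for transcript length and sums to the same total in every library. A change is the log2 fold change, mutant minus wild type, of set means of log2(TPM + 1) ± SE from limma, called where the Benjamini-Hochberg adjusted p over all 12797 tested genes was under 0.05, and levels are given as the average of the set means ± SD, with n = 2 sets for wild type and n = 3 for the mutant. Over all tested genes, 6.97% were called higher and 10.5% lower, against 11.8% and 29.4% of the 34. The 35 genes and the lists below were chosen with earlier results of these data known, so such shares are descriptions and not tests. The groups of libraries did not overlap for 18 of the 34, with the 6 mutant libraries above the 4 wild-type libraries for 5 and below them for 13, where all genes gave 12.4% above and 19.4% below. The median change was -0.09 over the 34 genes and -0.04 over all tested genes, and 20 of the 34 genes had a change below zero. No call except that of Gpx3 reached a change of 1 in size. With median-of-ratios rescaling the counts were 5 higher and 7 lower, and higher calls made up 50.7% of the calls over all genes in place of 39.8%.

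**Figure D1:**
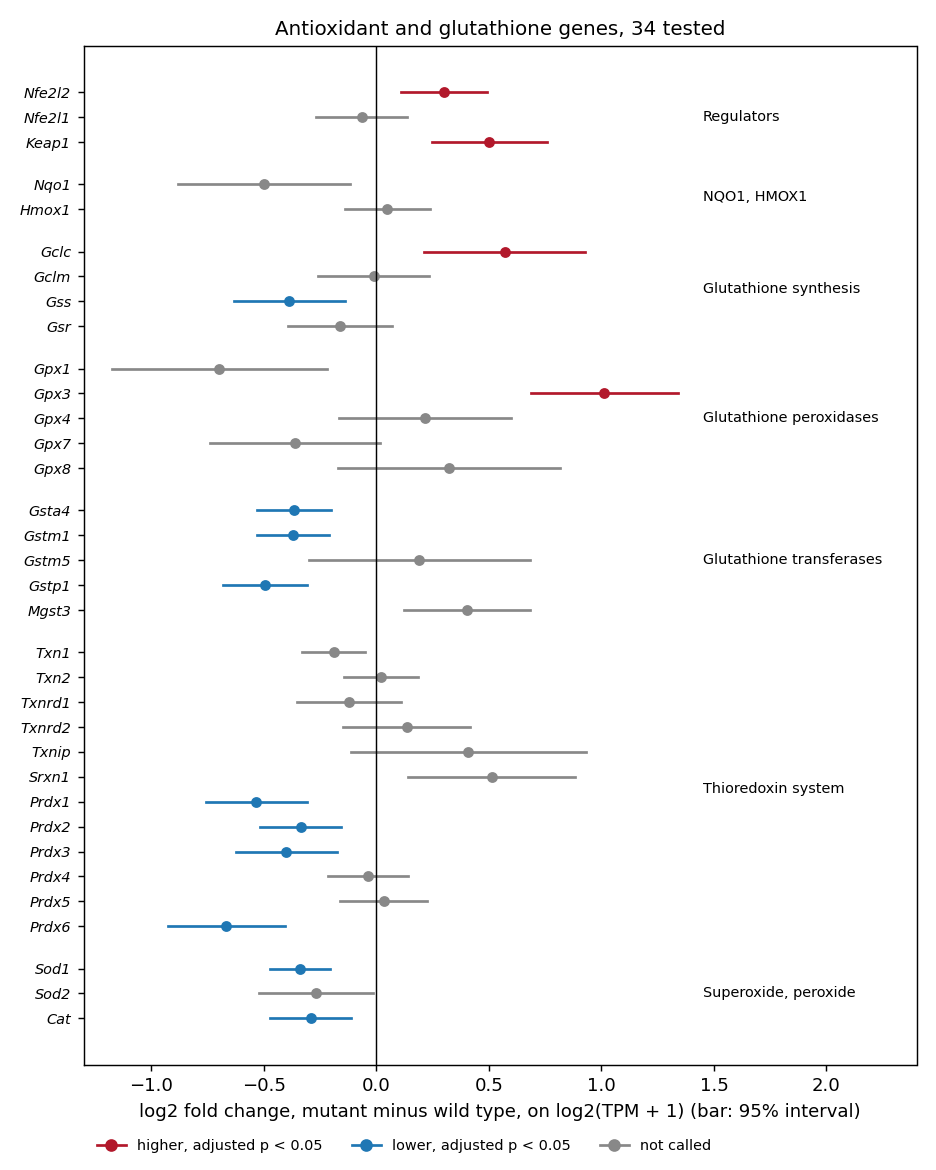
Log2 fold change (mutant minus wild type, on log2(TPM + 1)) of the 34 tested genes, grouped by system, with 95% intervals from limma on set means. Red points are the 4 genes called higher, blue points the 10 called lower and grey points the 20 not called, and the lower calls are Gss, 3 transferases, 4 peroxiredoxins, Sod1 and Cat.

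By system, the 3 regulators had 2 higher calls, and the 9 textbook NRF2 targets (Nqo1, Hmox1, Gclc, Gclm, Gsr, Txn1, Txnrd1, Prdx1 and Srxn1) had 1 higher, 1 lower and 7 not called, with a median change of -0.12. Glutathione synthesis and recycling had 1 higher and 1 lower call among 4 genes, and the 5 glutathione peroxidases had 1 higher call. The 5 tested transferases had 3 lower calls (median -0.36), the 12 thioredoxin-system genes 4 lower calls (median -0.08) and the 3 superoxide and hydrogen peroxide genes 2 lower calls (median -0.29). No gene of these last 3 systems was called higher in the fit described above. Under some other settings Mgst3 and Srxn1 were called higher, and Txn1 and Sod2 lower. The 5 genes whose products are known as selenoproteins (Gpx1, Gpx3, Gpx4, Txnrd1 and Txnrd2) had 1 higher call and a median of 0.13.

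Summed over the 35 genes, the level ran from 6598 to 7240.4 TPM in the wild-type libraries and from 5593 to 5974 TPM in the mutant libraries, so that the groups did not overlap, and the mutant mean differed from the wild-type mean by -16.3%. The most abundant members carry this sum, Sod1, Prdx1, Gsta4 and Gpx4 being the highest by wild-type mean TPM. The transferase sum ran from 1021 to 1120.3 TPM in wild-type and from 776 to 867 TPM in mutant libraries. The thioredoxin-system sum ran from 2406 to 2585 TPM in wild-type and from 1926 to 2139 TPM in mutant libraries. For superoxide and hydrogen peroxide the sums were 1565 to 1690.1 TPM and 1255 to 1318 TPM. The 9 NRF2 targets, which include genes of other systems such as Prdx1 and Txn1, summed to 1965 to 2093 TPM and 1524 to 1786 TPM. Prdx1 (1116 ± 59.4 TPM in wild-type and 773 ± 82.6 TPM in mutant sets) is counted in this sum and in that of the thioredoxin system. Sod1 (1353 ± 42.3 and 1068 ± 14.4 TPM) makes up most of the superoxide and hydrogen peroxide sum. These 4 sums did not overlap between genotypes, whereas the sums of the regulators (152 to 171 and 167 to 181 TPM), of glutathione peroxidases (1151 to 1382 and 1082 to 1368 TPM) and of glutathione synthesis and recycling (193 to 208 and 172 to 211 TPM) did. No test was made of the sums. In bulk RNA, fewer cells that express a gene and less of its RNA per cell cannot be told apart.

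**Figure D2:**
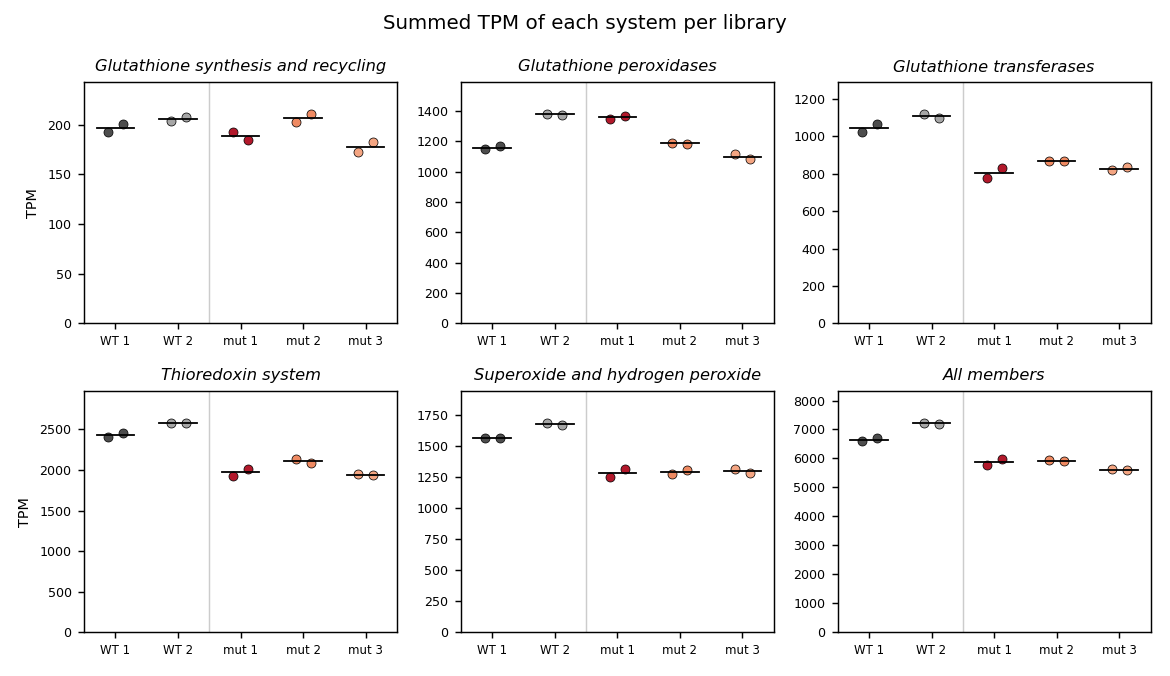
Summed TPM of the members of 5 systems and of all 35 genes in each library (points) with set means (lines), for wild-type sets 1 and 2 (WT) and mutant sets 1, 2 and 3 (mut). The sums of transferases, the thioredoxin system, the superoxide and hydrogen peroxide genes and all members are lower in every mutant library, and those of glutathione synthesis and peroxidases overlap.

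NRF2 binds DNA at the antioxidant response element, so the members' promoters were searched for its core letters, TGACNNNGC, on both strands. The windows are those of RefSeq on GRCm38.p6, from 250 bases before to 50 bases after a gene's start. Of 30 members with a window, 8 held a match (Nfe2l2, Gclm, Txnrd1, Prdx1, Sod1, Srxn1, Gstm5 and Mgst1), beside 14% of the 27025 genes with a window. A match stood in 1 of 3 members called higher, 2 of 8 called lower and 4 of 18 not called. The letters TGAC are shared with the AP-1 and CREB motifs, which were not searched, and a match is a description of these letters only. The stretches of the 3 called genes with a match and of Gclm and Txnrd1, both classical NRF2 targets, are printed 5′ to 3′ on the gene's strand with the match in capitals:
Nfe2l2 (chr2:75704853-75704913, minus strand): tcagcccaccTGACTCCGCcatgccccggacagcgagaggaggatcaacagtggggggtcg
Prdx1 (chr4:116685440-116685500, plus strand): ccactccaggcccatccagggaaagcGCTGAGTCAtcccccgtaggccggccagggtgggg
Sod1 (chr16:90220680-90220740, plus strand): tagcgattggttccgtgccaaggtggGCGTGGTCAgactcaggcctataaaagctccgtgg
Gclm (chr3:122245397-122245457, plus strand): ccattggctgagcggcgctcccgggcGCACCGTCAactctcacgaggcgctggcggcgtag
Txnrd1 (chr10:82859088-82859148, plus strand): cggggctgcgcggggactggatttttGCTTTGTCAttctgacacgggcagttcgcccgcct
The match begins 240 bases before the RefSeq start in Nfe2l2, 133 in Prdx1, 56 in Sod1, 134 in Gclm and 92 before the start of 1 of the 3 windows of Txnrd1. The Nfe2l2 stretch lies in an exon of the noncoding transcript E030042O20Rik on the opposite strand, and the others lie in no GENCODE M21 exon. Beside these letters, Nfe2l2 was higher in the mutant, Prdx1 and Sod1 were lower, and Gclm and Txnrd1 were not called.

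Both partners of the NRF2 switch were higher in the mutant, by less than 1 on the log2 scale. Nfe2l2 (ENSMUSG00000015839.6, chromosome 2, 75675513 to 75704641, minus strand; GRCm38, as for all positions below) was measured in wild-type cells at 51.9 and 51.5 TPM in set 1 and 56.98 and 55.7 TPM in set 2. Mutant Nfe2l2 values were 70.1 and 69.7 TPM in set 1, 68.7 and 65.6 TPM in set 2 and 62.3 and 64.5 TPM in set 3. Every mutant library lay above every wild-type library, and the level went from 54.01 ± 3.26 to 66.8 ± 3.25 TPM. The change was 0.30 ± 0.08 (adjusted p = 0.045). Keap1 (ENSMUSG00000003308.15, chromosome 9, 21229730 to 21239361, minus strand) read 9.01 and 9.96 TPM in set 1 and 10.2 and 11.9 TPM in set 2 in wild-type cells. Mutant Keap1 values were 16.1 and 15.2 TPM in set 1, 15.8 and 14.3 TPM in set 2 and 17.03 and 11.4 TPM in set 3. The lowest mutant library, library 2 of set 3, fell below the highest wild-type library, library 2 of set 2, so the genotypes overlapped in these libraries. Keap1 went from 10.3 ± 1.10 to 14.98 ± 0.707 TPM, a change of 0.50 ± 0.11 (adjusted p = 0.0258). Keap1 overlaps Gm16754 on the opposite strand, which was also called higher (2.33 ± 0.364 to 4.48 ± 0.555 TPM, change 0.72 ± 0.16, adjusted p = 0.0263). No source used here says whether reads were counted by strand, so reads of that overlap cannot be assigned. The Nfe2l2 call ended without library 2 of wild-type set 2, library 1 of mutant set 1, library 1 of mutant set 2 or library 2 of mutant set 3 (adjusted p 0.0554 to 0.0605). Without library 1 of wild-type set 2 or library 1 of mutant set 3 the Keap1 call ended (adjusted p = 0.0504 and 0.115). When a whole mutant set was left out, the Nfe2l2 call ended whichever set it was (adjusted p 0.0693 to 0.113). The Keap1 call ended without mutant set 1 (adjusted p = 0.0853) or mutant set 3 (0.0531).

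NRF1, the product of Nfe2l1, is a relative of NRF2 that sits in the endoplasmic reticulum membrane and drives proteasome genes. Nfe2l1 read 105 and 90.5 TPM in set 1 and 94.99 and 103 TPM in set 2 in wild-type and 89.4 and 94.5 TPM in set 1, 82.9 and 92.7 TPM in set 2 and 102 and 104 TPM in set 3 in mutant cells. The genotypes overlapped and the change of -0.06 ± 0.09 was not called (adjusted p = 0.621, 95% interval -0.27 to 0.14).

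Among NRF2's best known targets outside the thiol systems, Nqo1 was measured lower in every mutant library but not called, and Hmox1 overlapped. NQO1 is a quinone reductase and a usual marker of NRF2 activity. Nqo1 read 26.8 and 25.1 TPM in set 1 and 32.95 and 32.6 TPM in set 2 in wild-type cells and 17.9 and 15.8 TPM in set 1, 23.8 and 23.4 TPM in set 2 and 20.9 and 21.6 TPM in set 3 in mutant cells. The change was -0.50 ± 0.16 (adjusted p = 0.0746). Its level also differed within genotypes, among the 3 mutant sets (F test, adjusted p = 0.00811), where set 1 was lowest, and between the wild-type sets (adjusted p = 0.0498), where set 2 was higher. Hmox1, the heme oxygenase that breaks heme into biliverdin, iron and carbon monoxide, ranged from 62.9 to 69.7 TPM in the 4 wild-type libraries and 64.05 to 72.5 TPM in the 6 mutant libraries. Its change was 0.05 ± 0.08 (adjusted p = 0.693). Of the other textbook targets, Gclc was called higher, Prdx1 was called lower, and Gclm, Gsr, Txn1, Txnrd1 and Srxn1 were not called.

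In glutathione synthesis, the catalytic subunit of the first ligase was higher and the second ligase was lower. Gclc (ENSMUSG00000032350.9, chromosome 9, 77754535 to 77794485, plus strand) encodes the catalytic subunit of glutamate-cysteine ligase, the rate-limiting enzyme of glutathione synthesis. Gclc read 27.2 and 28.8 TPM in set 1 and 21.1 and 22.4 TPM in set 2 in wild-type cells. Mutant Gclc values were 33.5 and 29.9 TPM in set 1, 41.8 and 42.8 TPM in set 2 and 38.2 and 38.3 TPM in set 3. All mutant libraries were above all wild-type libraries, mutant set 1 being nearest to them, and the level went from 24.9 ± 4.40 to 37.4 ± 5.35 TPM. Its change of 0.57 ± 0.15 (adjusted p = 0.0441) stood beside differences within genotypes, among mutant sets (adjusted p = 0.0113) and between wild-type sets (adjusted p = 0.0344, set 2 minus set 1 -0.35 ± 0.06). Gclm, the modifier subunit that raises the ligase's activity, ranged from 34.8 to 40.4 TPM in the 4 wild-type libraries and 33.96 to 44.3 TPM in the 6 mutant libraries and its change was -0.01 ± 0.11 (adjusted p = 0.942). That sign turned with rescaling or a GC correction.

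Gss (ENSMUSG00000027610.17, chromosome 2, 155563181 to 155592810, minus strand), glutathione synthetase, adds glycine in the second step. Gss read 58.1 and 59.6 TPM in set 1 and 65.2 and 64.6 TPM in set 2 in wild-type cells. Mutant Gss values were 47.9 and 51.1 TPM in set 1, 49.6 and 51.2 TPM in set 2 and 44 and 39.6 TPM in set 3. Every mutant library lay below every wild-type library, with mutant set 3 lowest, and the change was -0.39 ± 0.10 (adjusted p = 0.0462). The mutant sets differed from each other (adjusted p = 0.0293). Gss overlaps Acss2 on the opposite strand, whose difference had the opposite sign and was not called (change 0.34 ± 0.10, adjusted p = 0.0562). Gsr, glutathione reductase, ranged from 72.6 to 82.8 TPM in the 4 wild-type libraries and 56.01 to 78.2 TPM in the 6 mutant libraries, and its change of -0.16 ± 0.10 was not called (adjusted p = 0.281). The Gclc call was near its threshold and ended in 8 of the 10 fits that each leave out 1 library (adjusted p 0.0504 to 0.0774), all except those without library 2 of wild-type set 1 and library 2 of mutant set 1. The Gss call ended in 6 of them, without library 2 of wild-type set 1, either library of wild-type set 2, or library 1 of mutant set 1, 2 or 3 (adjusted p 0.0517 to 0.0726), and with median-of-ratios rescaling (adjusted p = 0.0902), quantile normalization (0.108) or a GC correction (0.067).

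Gpx3 had the largest change of the 34 genes. It (ENSMUSG00000018339.11, chromosome 11, 54902453 to 54910377, plus strand) encodes a secreted glutathione peroxidase found in plasma. Gpx3 read 5.14 and 4.88 TPM in set 1 and 5.64 and 6.24 TPM in set 2 in wild-type cells. Mutant Gpx3 values were 12.8 and 11.1 TPM in set 1, 10.6 and 10.7 TPM in set 2 and 13.7 and 13.8 TPM in set 3. The lowest mutant library was well above the highest wild-type library. Gpx3 rose from 5.47 ± 0.658 to 12.1 ± 1.57 TPM, a ratio of 2.21, with a change of 1.01 ± 0.14 (adjusted p = 0.00828), and this call held in each of the 10 fits without 1 library. Its low level leaves it a small part of the peroxidase RNA.

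**Figure D3:**
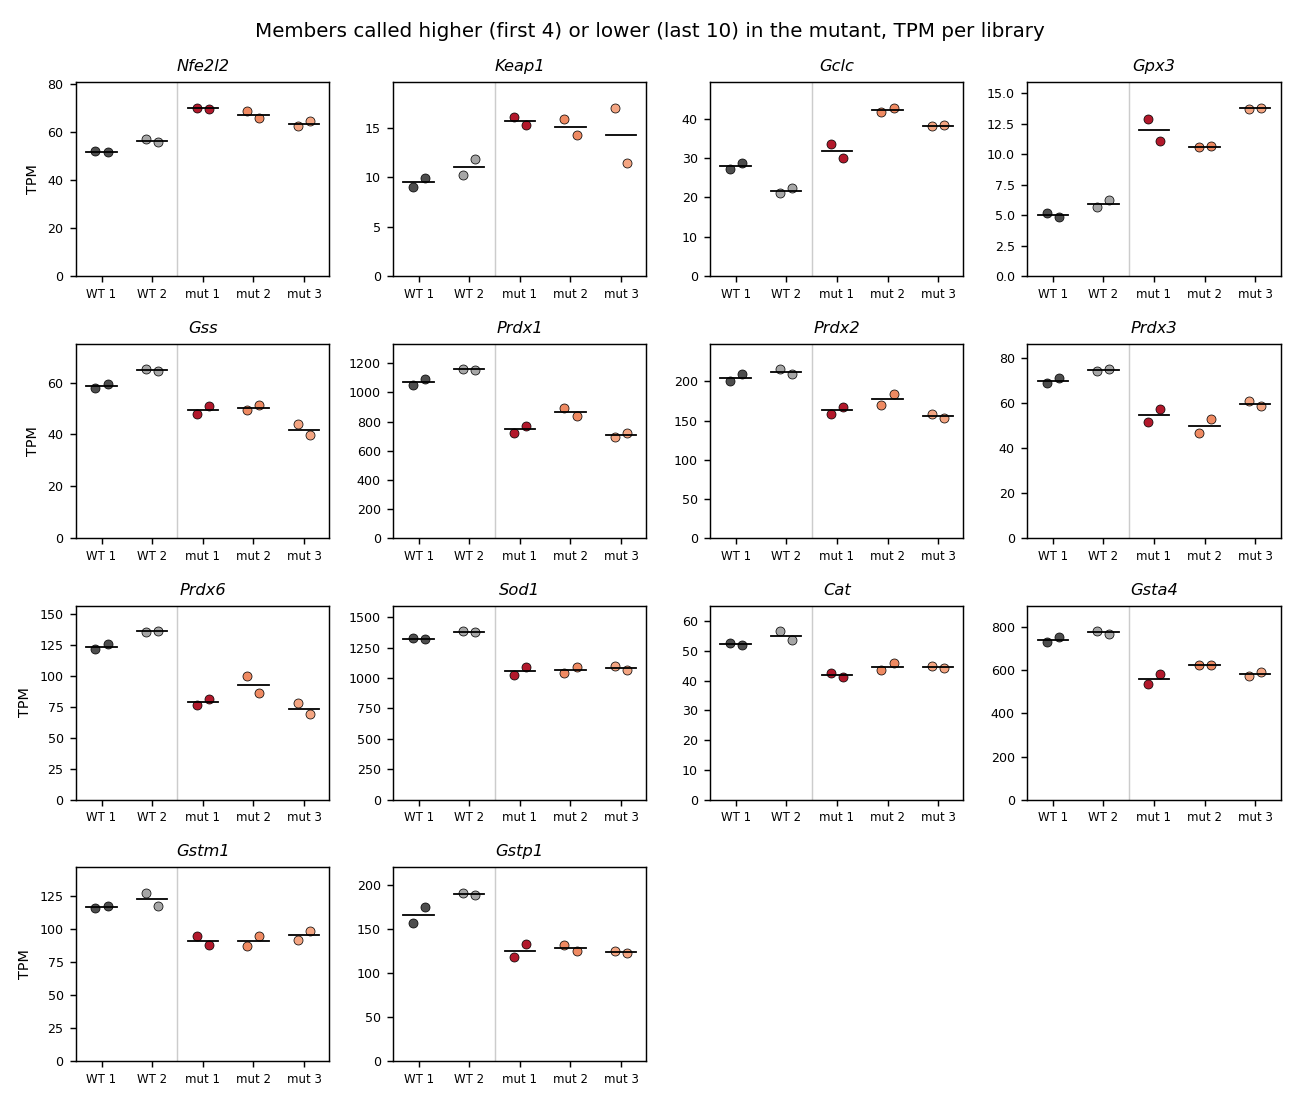
TPM in each library (points) and set means (lines) of the 14 genes called between genotypes, the 4 higher and then the 10 lower, for wild-type sets 1 and 2 (WT) and mutant sets 1, 2 and 3 (mut). Keap1 is the 1 gene of the 14 whose libraries overlap between genotypes.

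The abundant peroxidases Gpx1 and Gpx4 differed strongly between sets of 1 genotype and were not called between genotypes. GPX1 is the main cytosolic glutathione peroxidase. Gpx1 read 485 and 496 TPM in set 1 and 515 and 492 TPM in set 2 in wild-type cells. Mutant Gpx1 values were 289.9 and 288 TPM in set 1, 419 and 407 TPM in set 2 and 248 and 233 TPM in set 3. All mutant libraries were below all wild-type libraries, but mutant set 2 lay far above sets 1 and 3 (among mutant sets, adjusted p = 0.000111). The change was -0.70 ± 0.20 (adjusted p = 0.0559), larger in size than any of the 10 lower calls, and with its 95% interval from -1.17 to -0.22. Gpx1 was called without mutant set 2 (change -0.91, adjusted p = 0.00937), and also over all 10 libraries with no block (adjusted p = 0.00426), at a mean of at least 5 TPM (0.0457) and with a GC correction (0.042). The fit with no block counts the libraries of a set as independent, which can make its p too small.

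GPX4 reduces lipid peroxides in membranes and protects cells from ferroptosis. Gpx4 read 651 and 656 TPM in set 1 and 849 and 867 TPM in set 2 in wild-type cells. Mutant Gpx4 values were 1038 and 1059 TPM in set 1, 749 and 756 TPM in set 2 and 847 and 823 TPM in set 3. Wild-type set 2 was above set 1 (0.39 ± 0.03, adjusted p = 0.000715) and mutant set 1 was above the others (adjusted p = 0.000135), so that the genotypes overlapped. The change between genotypes was 0.22 ± 0.16 (adjusted p = 0.378). Gpx4 has a near copy, Gpx4-ps2, at 28.3 ± 3.55 TPM in wild-type and 33.5 ± 9.77 TPM in mutant sets, and the summed TPM of both gave a change of 0.22 ± 0.16 (adjusted p = 0.381).

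Gpx7 and Gpx8, peroxidases of the endoplasmic reticulum, were low. Gpx7 ranged from 5.37 to 8.34 TPM in the 4 wild-type libraries and 3.15 to 6.94 TPM in the 6 mutant libraries (change -0.36 ± 0.16, adjusted p = 0.157). Gpx8 read 3.05 and 3.94 TPM in set 1 and 2.98 and 2.94 TPM in set 2 in wild-type cells and 3.23 and 2.97 TPM in set 1, 4.66 and 4.22 TPM in set 2 and 4.73 and 6.42 TPM in set 3 in mutant cells. It was highest in mutant set 3, its mutant sets differed (adjusted p = 0.0418), and the change between genotypes was 0.32 ± 0.21 (adjusted p = 0.313). The Gpx8 difference among mutant sets ended in 9 of the 10 fits that leave out 1 library (adjusted p up to 0.137), all except that without library 1 of mutant set 3.

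Of the glutathione transferases, which attach glutathione to electrophiles, Gsta4, Gstm1 and Gstp1 were lower. GSTA4 acts on 4-hydroxynonenal, a product of lipid peroxidation. Gsta4 (ENSMUSG00000032348.6, chromosome 9, 78182774 to 78209349, plus strand) read 731 and 755 TPM in set 1 and 784 and 769 TPM in set 2 in wild-type cells. Mutant Gsta4 values were 539 and 584 TPM in set 1, 625 and 628 TPM in set 2 and 575 and 592 TPM in set 3. The groups did not overlap, and Gsta4 fell from 759.9 ± 23.7 to 590.5 ± 33.1 TPM (change -0.36 ± 0.07, adjusted p = 0.0187). Gstm1 (ENSMUSG00000058135.12, chromosome 3, 108012255 to 108017973, minus strand), a mu-class transferase, read 116 and 118 TPM in set 1 and 127 and 118 TPM in set 2 in wild-type cells. Mutant Gstm1 values were 94.5 and 87.5 TPM in set 1, 87.2 and 94.2 TPM in set 2 and 91.4 and 98.7 TPM in set 3. Mutant sets were close to each other and below wild type, and the change was -0.37 ± 0.07 (adjusted p = 0.0171). Both calls held in each of the 10 fits without 1 library, but without 1 set the Gsta4 call ended in 4 of 5 fits (adjusted p up to 0.155) and the Gstm1 call in 3 (up to 0.145). The Gsta4 call also ended with no filter on low values (adjusted p = 0.0611) and with no variance trend (0.0547).

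Gstp1 and its neighbour Gstp2 are near copies whose measured differences had opposite signs. Gstp1 (ENSMUSG00000060803.6, chromosome 19, 4035407 to 4037985, minus strand) is a pi-class transferase. Gstp1 read 157 and 175 TPM in set 1 and 192 and 189 TPM in set 2 in wild-type cells. Mutant Gstp1 values were 118 and 133 TPM in set 1, 132 and 125 TPM in set 2 and 125 and 122 TPM in set 3. The groups did not overlap, and Gstp1 went from 178 ± 17.2 to 126 ± 2.54 TPM (change -0.50 ± 0.08, adjusted p = 0.0124). Gstp2 read 143 and 136 TPM in set 1 and 157 and 176 TPM in set 2 in wild-type cells and 182 and 175 TPM in set 1, 167 and 168 TPM in set 2 and 213 and 215 TPM in set 3 in mutant cells. Its libraries overlapped between genotypes, with mutant set 3 highest, and its change was 0.28 ± 0.12 (adjusted p = 0.152). For the summed TPM of both genes the change was -0.08 ± 0.09 (adjusted p = 0.560), so the Gstp1 call did not hold for the pair. How reads shared by both copies were divided was not tested, and the split between Gstp1 and Gstp2 is therefore uncertain.

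**Figure D4:**
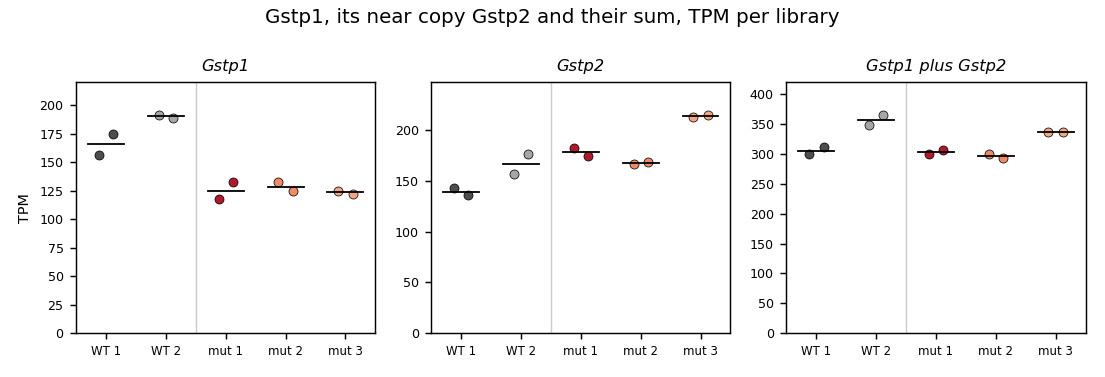
TPM of Gstp1, of its near copy Gstp2 and of their sum in each library (points) with set means (lines), for wild-type sets 1 and 2 (WT) and mutant sets 1, 2 and 3 (mut). Gstp1 is lower in every mutant library, Gstp2 is highest in mutant set 3, and the sums overlap between genotypes.

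The microsomal transferases sit in membranes. Mgst3 ranged from 12.1 to 14.96 TPM in the 4 wild-type libraries and 16.2 to 21.2 TPM in the 6 mutant libraries, every mutant library being higher, but its change of 0.40 ± 0.12 was not called (adjusted p = 0.0582). Mgst3 was called higher with median-of-ratios rescaling, with quantile normalization and at a mean of at least 5 TPM. Mgst1 was the 1 member below the limit of 1 TPM and was not tested. It read 0.18 and 0.12 TPM in set 1 and 0.74 and 0.81 TPM in set 2 in wild-type cells, was listed at 0 in 5 mutant libraries and read 0.1 TPM in library 2 of mutant set 3. Gstm5, at 4.67 ± 0.46 TPM in wild-type and 5.51 ± 1.69 TPM in mutant sets, overlapped (change 0.19 ± 0.21, adjusted p = 0.541).

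Among the peroxiredoxins, Prdx1, Prdx2, Prdx3 and Prdx6 were lower in the mutant, whereas Prdx4 and Prdx5 were not called. PRDX1 and PRDX2 are the abundant cytosolic enzymes that remove hydrogen peroxide. Prdx1 (ENSMUSG00000028691.12, chromosome 4, 116685544 to 116700822, plus strand) read 1053 and 1095 TPM in set 1 and 1159.7 and 1157 TPM in set 2 in wild-type cells. Mutant Prdx1 values were 722 and 771 TPM in set 1, 892 and 839.9 TPM in set 2 and 695 and 721 TPM in set 3. Every mutant library was far below every wild-type library, mutant set 2 being the highest of them, and the level fell from 1116 ± 59.4 to 773 ± 82.6 TPM. Prdx1 thus had a change of -0.53 ± 0.10 (adjusted p = 0.0162), with a further difference among mutant sets (adjusted p = 0.00807). Prdx2 (ENSMUSG00000005161.15, chromosome 8, 84969587 to 84974834, plus strand) read 200.2 and 209 TPM in set 1 and 215 and 209 TPM in set 2 in wild-type cells. Mutant Prdx2 values were 159 and 167 TPM in set 1, 170.4 and 184 TPM in set 2 and 158 and 153 TPM in set 3. The groups did not overlap, and the change was -0.34 ± 0.08 (adjusted p = 0.0288). Prdx2 overlaps Rnaseh2a on the opposite strand, which was also called lower (124 ± 12.2 to 95.5 ± 5.24 TPM, change -0.37 ± 0.09, adjusted p = 0.0326), so reads of the overlap cannot be assigned without the strand.

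PRDX3 is the peroxiredoxin of mitochondria. Prdx3 (ENSMUSG00000024997.7, chromosome 19, 60864051 to 60874556, minus strand) read 68.9 and 71.3 TPM in set 1 and 74.3 and 75.2 TPM in set 2 in wild-type cells. Mutant Prdx3 values were 51.7 and 57.7 TPM in set 1, 46.6 and 53.2 TPM in set 2 and 60.9 and 58.6 TPM in set 3. All mutant libraries were lower, set 2 most so, and the change was -0.40 ± 0.09 (adjusted p = 0.0327). Prdx6 (ENSMUSG00000026701.15, chromosome 1, 161240112 to 161251219, minus strand), the enzyme with 1 active cysteine that also acts on phospholipids, read 122 and 126 TPM in set 1 and 136 and 137 TPM in set 2 in wild-type cells. Mutant Prdx6 values were 76.9 and 81.1 TPM in set 1, 99.8 and 86.4 TPM in set 2 and 78.2 and 68.9 TPM in set 3. The groups did not overlap, and the Prdx6 level fell from 129.96 ± 8.79 to 81.9 ± 10.1 TPM. Its change of -0.67 ± 0.11 (adjusted p = 0.0138) was the largest in size among the 10 lower calls, and its mutant sets differed (adjusted p = 0.044). Prdx4, of the endoplasmic reticulum, ranged from 65.5 to 70.7 TPM in the 4 wild-type libraries and 60.4 to 69.9 TPM in the 6 mutant libraries (change -0.04 ± 0.07, adjusted p = 0.75), and Prdx5, of mitochondria and peroxisomes, from 42.4 to 50.3 TPM in the 4 wild-type libraries and 42.5 to 48.4 TPM in the 6 mutant libraries (change 0.03 ± 0.08, adjusted p = 0.803), and the sign of either turned with a GC correction. The Prdx2 call ended without library 1 of mutant set 2 (adjusted p = 0.051) and the Prdx3 call without library 1 of mutant set 1 (adjusted p = 0.0535). Leaving out any 1 library kept the Prdx1 and Prdx6 calls between genotypes, but the Prdx6 difference among mutant sets ended in 8 of these 10 fits (adjusted p up to 0.171), all except those without library 2 of mutant set 2 and library 1 of mutant set 3. The Prdx2 call also ended with median-of-ratios rescaling (adjusted p = 0.0615) and quantile normalization (0.0758), and the Prdx3 call with quantile normalization (0.0577) and a GC correction (0.0622).

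The thioredoxins and reductases that recharge the peroxiredoxins were not called. Txn1, cytosolic thioredoxin, ranged from 569 to 587 TPM in the 4 wild-type libraries and 483 to 531 TPM in the 6 mutant libraries, lower in every mutant library (change -0.19 ± 0.06, adjusted p = 0.0681). Txn2, its mitochondrial relative, ranged from 90.9 to 98.8 TPM in the 4 wild-type libraries and 92.5 to 102 TPM in the 6 mutant libraries (change 0.02 ± 0.07, adjusted p = 0.863). Txnrd1, the cytosolic reductase, read 95.02 and 96.3 TPM in set 1 and 103 and 101 TPM in set 2 in wild-type cells and 90.2 and 83.2 TPM in set 1, 103 and 101 TPM in set 2 and 82.5 and 87.2 TPM in set 3 in mutant cells. Mutant set 2 lay with the wild-type sets and above mutant sets 1 and 3 (adjusted p = 0.0148 among mutant sets), and the change was -0.12 ± 0.10 (adjusted p = 0.41). Txnrd2, the mitochondrial reductase, was at 5.45 ± 0.442 TPM in wild-type and 6.11 ± 0.36 TPM in mutant sets (adjusted p = 0.454). The Txnrd1 difference among mutant sets ended without library 1 or library 2 of mutant set 2 (adjusted p = 0.0839 and 0.0676).

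Txnip binds and inhibits thioredoxin and responds to glucose, and SRXN1, sulfiredoxin, repairs over-oxidized peroxiredoxins. Txnip read 65.8 and 65.6 TPM in set 1 and 94.5 and 95.3 TPM in set 2 in wild-type cells. Mutant Txnip values were 122 and 115 TPM in set 1, 80.96 and 78.02 TPM in set 2 and 122 and 124 TPM in set 3. Wild-type set 2 was above set 1 (0.52 ± 0.04, adjusted p = 0.00215) and mutant set 2 was below sets 1 and 3 (adjusted p = 0.000225), so the genotypes overlapped and the change of 0.41 ± 0.22 was not called (adjusted p = 0.234). Srxn1 read 6.95 and 7.71 TPM in set 1 and 11.6 and 9.75 TPM in set 2 in wild-type cells and 12.1 and 12.5 TPM in set 1, 13.9 and 14.3 TPM in set 2 and 12.96 and 12.6 TPM in set 3 in mutant cells. Its mutant libraries all lay above the wild-type libraries, by little above those of set 2, and the change was 0.51 ± 0.16 (adjusted p = 0.0647). The wild-type sets differed (0.48 ± 0.09, adjusted p = 0.036).

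Sod1 and Cat were lower and Sod2 was not called. SOD1 is the cytosolic copper and zinc enzyme that converts superoxide to hydrogen peroxide. Sod1 (ENSMUSG00000022982.10, chromosome 16, 90220754 to 90226329, plus strand) had the highest wild-type TPM of the 35 genes and read 1326 and 1319 TPM in set 1 and 1389 and 1376 TPM in set 2 in wild-type cells. Mutant Sod1 values were 1024 and 1087 TPM in set 1, 1043 and 1088 TPM in set 2 and 1098 and 1070.03 TPM in set 3. The groups did not overlap, the 3 mutant sets were close to each other, and Sod1 fell from 1353 ± 42.3 to 1068 ± 14.4 TPM (change -0.34 ± 0.06, adjusted p = 0.0139). Cat (ENSMUSG00000027187.10, chromosome 2, 103453849 to 103485160, minus strand) encodes catalase, the peroxisomal enzyme that splits hydrogen peroxide. Cat read 52.6 and 52.1 TPM in set 1 and 56.8 and 53.7 TPM in set 2 in wild-type cells. Mutant Cat values were 42.7 and 41.2 TPM in set 1, 43.7 and 45.9 TPM in set 2 and 44.9 and 44.4 TPM in set 3. They were all below wild type, and the change was -0.29 ± 0.08 (adjusted p = 0.0426). Sod2, the manganese enzyme of mitochondria, read 186 and 198 TPM in set 1 and 245 and 237 TPM in set 2 in wild-type cells and 188 and 189 TPM in set 1, 189 and 170.3 TPM in set 2 and 170.2 and 165 TPM in set 3 in mutant cells. Wild-type set 2 stood above the other 4 sets (0.33 ± 0.05 over wild-type set 1, adjusted p = 0.0247), and the change between genotypes was -0.27 ± 0.11 (adjusted p = 0.128). Cat lost its call without library 1 of wild-type set 2, library 1 of mutant set 1 or library 1 of mutant set 2 (adjusted p 0.0506 to 0.0596), and with median-of-ratios rescaling (adjusted p = 0.0602), quantile normalization (0.0663) or a GC correction (0.0587), and the Sod1 call held in each of these.

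Within genotypes, 10 of the 34 genes differed among the 3 mutant sets, where 19.6% of all tested genes did, and 6 differed between the 2 wild-type sets, where 2.75% of all genes did. These tests use the spread between the 2 libraries of a set, which may be technical. The 10 were Nqo1, Gclc, Gss, Gpx1, Gpx4, Gpx8, Txnrd1, Txnip, Prdx1 and Prdx6, and the 6 were Nqo1, Gclc, Gpx4, Txnip, Sod2 and Srxn1. Of the 14 genes called between genotypes, 10 differed neither among mutant sets nor between wild-type sets, and the other 4 were Gclc, Gss, Prdx1 and Prdx6. The genotype test uses the spread between set means, so a gene whose sets differ is less readily called. The same share was not computed over all called genes. Gpx1, Txnrd1, Gclc, Gss, Nqo1, Prdx1 and Prdx6 had their highest mutant level in set 2, where Gpx4 and Txnip were lowest. Leaving out 1 library ended the difference between wild-type sets for Nqo1, Gclc and Srxn1 in 8 of 10 fits, all except those without a library of mutant set 1, and for Sod2 in 6, those without a wild-type library or a library of mutant set 3 (adjusted p up to 0.216). Gpx4 and Txnip kept theirs in all 10. Among mutant sets the Gss difference ended in 7 of these fits, those without a wild-type library, a library of mutant set 2 or library 2 of mutant set 3 (adjusted p up to 0.145), and the Gclc difference without library 2 of mutant set 2 (adjusted p = 0.0514).

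**Figure D5:**
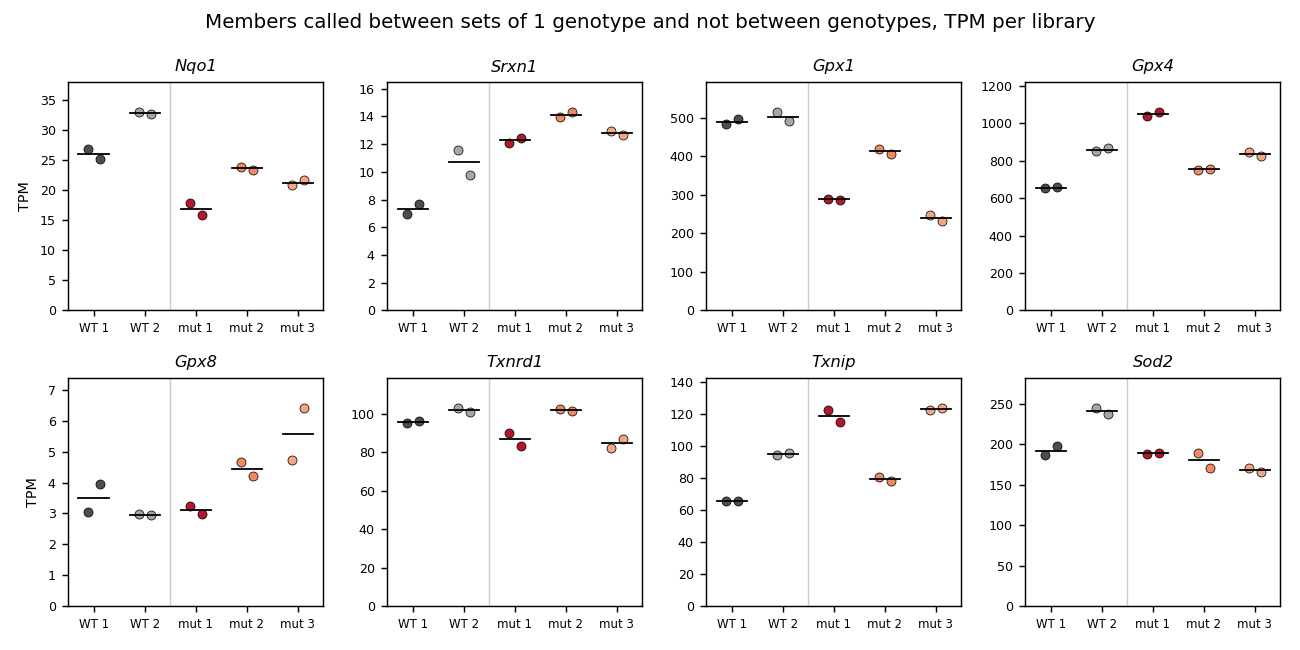
TPM in each library (points) and set means (lines) of the 8 genes that were called among mutant sets or between wild-type sets but not between genotypes, for wild-type sets 1 and 2 (WT) and mutant sets 1, 2 and 3 (mut). Gpx1, Gpx4 and Txnip differ more between sets of 1 genotype than between the 2 libraries of a set, while the libraries of a set lie apart for Gpx8 in wild-type set 1 and mutant set 3 and for Srxn1 in wild-type set 2.

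Whole sets decided the calls more than single libraries did. Without either wild-type set few or none of the 14 calls held, and calls over all tested genes also fell steeply. The calls left were 3 without mutant set 1 (Gpx3, Sod1 and Gstp1), 11 without mutant set 2 and 7 without mutant set 3. The calls of Nfe2l2, Gclc and Cat ended whichever mutant set was left out. Those of Keap1, Gss, Prdx2 and Gsta4 ended without mutant set 1 and without mutant set 3. Over all tested genes there were 892 higher and 1350 lower calls. These became 241 and 413 without mutant set 1, 1005 and 1388 without mutant set 2, and 315 and 605 without mutant set 3. The Gstp1 call did not hold for its summed TPM with Gstp2. Each such fit keeps 4 sets and, without a wild-type set, rests on 1 wild-type set that is assumed to vary like the mutant sets. For each of the 14 genes all mutant set means lay on the same side of both wild-type set means. Leaving out a set therefore could not turn a direction. With no filter on low values, which adds genes to the test, the calls of Gpx3, Gstm1 and Gstp1 held and the other 11 ended (adjusted p 0.0522 to 0.126). With no variance trend 7 calls held, those of Keap1, Gpx3, Prdx1, Prdx6, Sod1, Gstm1 and Gstp1.

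A further 97 genes of the same pathways held 78 tested genes, of which 6 (7.69%) were higher and 10 (12.8%) lower, with a median change of -0.06. These shares are near those of all tested genes, 6.97% higher and 10.5% lower. Of 9 tested genes of NRF2 regulation, Maff, a small MAF protein that pairs with NRF2, was the 1 called higher and none was called lower. Maff read 7.16 and 8.40 TPM in set 1 and 8.27 and 7.65 TPM in set 2 in wild-type and 21.3 and 22.1 TPM in set 1, 16.1 and 15.6 TPM in set 2 and 17.1 and 15.7 TPM in set 3 in mutant cells. It was higher in every mutant library, with a change of 1.09 ± 0.15 (adjusted p = 0.00815). Of 18 other NRF2 targets, 1 was higher and 2 lower. Ephx1, microsomal epoxide hydrolase, rose from 16.6 ± 0.651 to 34.8 ± 1.43 TPM (change 1.02 ± 0.08, adjusted p = 0.00267), and Idh1, the cytosolic isocitrate dehydrogenase that makes NADPH, fell from 239 ± 17.2 to 117 ± 14.5 TPM (change -1.03 ± 0.11, adjusted p = 0.00471).

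Of 24 further glutathione transferases and related enzymes, 2 (8.33%) were higher and 3 (12.5%) lower, again near the 6.97% and 10.5% of all tested genes. Gstt2, a theta-class transferase, rose from 5.92 ± 0.481 to 15.5 ± 4.16 TPM (change 1.21 ± 0.22, adjusted p = 0.0163) and Gsto1, of the omega class, from 23.9 ± 0.467 to 38.1 ± 5.12 TPM (change 0.64 ± 0.12, adjusted p = 0.017). Gstm3 fell from 6.79 ± 1.26 to 2.02 ± 0.36 TPM (change -1.37 ± 0.17, adjusted p = 0.00674), and Gpx2, a glutathione peroxidase best known from the gut, was at 4.42 ± 0.962 TPM in wild-type and 2.23 ± 0.638 TPM in mutant sets (change -0.76 ± 0.21, adjusted p = 0.0469), a call that ended in 8 of the 10 fits without 1 library (adjusted p up to 0.107). The Gpx2 call also ended with median-of-ratios rescaling (adjusted p = 0.0556), quantile normalization (0.0648), a GC correction (0.0568), no variance trend (0.0565) and no filter (0.144), and the calls of Gstt2 (0.0685) and Gsto1 (0.0599) ended with no filter. The third lower call was Gstm2 (change -0.57 ± 0.09, adjusted p = 0.0139).

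Of 12 thioredoxin relatives, none was higher and 3 (25%) were lower, where 6.97% and 10.5% of all tested genes were. Glrx, glutaredoxin, which uses glutathione to reduce protein disulfides, read 45.6 and 45.1 TPM in set 1 and 49.2 and 50.5 TPM in set 2 in wild-type and 21.7 and 20.7 TPM in set 1, 19.2 and 19.1 TPM in set 2 and 21.03 and 20.4 TPM in set 3 in mutant cells. The groups were far apart, with a change of -1.19 ± 0.09 (adjusted p = 0.00233). Of 7 genes of the selenoprotein machinery, 1 was higher and 1 lower, and the lower one was Trnau1ap, which binds the selenocysteine tRNA (from 66.3 ± 0.382 to 43.97 ± 1.39 TPM, change -0.58 ± 0.07, adjusted p = 0.00666). Of 7 tested methionine sulfoxide reductases and other defence genes, 1 was lower. Of 7 oxidant producers only Cyba, a subunit of the superoxide-making NADPH oxidases, passed the filter and was tested. Cyba was higher, from 20.2 ± 3.08 to 51.3 ± 13.6 TPM (change 1.27 ± 0.22, adjusted p = 0.0155), a call that ended with no filter (adjusted p = 0.0676). The others were near the floor. Nox4 (0.63 to 0.243 TPM), Cybb (0.18 to 0.013 TPM) and Duox1 (0.24 to 0.085 TPM) were lower in every mutant library, and Nox1, Duox2 and Xdh overlapped. Oxidant production was not tested. The calls outside the 5 largest in each direction, named here after their values were seen, were Gstm2, Me1, Nxn, Sesn1 and Ccs, lower by changes of -0.57 to -0.34, and Sephs2, higher by 0.24, and these 6 were not refitted under other settings. For the 10 others, leaving out any 1 library kept each call except that of Gpx2. Leaving out wild-type set 2, which leaves 1 wild-type set, ended these calls, and calls over all tested genes also fell steeply.

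Markers of embryonic stem cells were present in every library. The summed TPM of 8 stem cell markers was 10612 to 11283 in wild-type and 9387 to 11188 in mutant libraries, with Esrrb called higher (change 0.28 ± 0.07, adjusted p = 0.0365) and Nanog (change -0.68 ± 0.08, adjusted p = 0.00674) and Zfp42 (change -0.50 ± 0.13, adjusted p = 0.0419) lower. Of 11 fibroblast feeder markers 8 were under 1 TPM in every library, with Postn, Dcn and S100a4 at 0, and the sums were 5 to 7.51 TPM and 5.7 to 7.01 TPM. Of 8 primitive endoderm markers 6 were under 1 TPM in every library, and the sums, mostly Sparc, were 84.2 to 94.5 TPM and 49.8 to 72.5 TPM, with Sparc called lower (change -0.58 ± 0.15, adjusted p = 0.0392) and Col4a1 higher (0.92 ± 0.16, adjusted p = 0.0165). The 4 visceral endoderm and liver markers were all under 1 TPM, with Alb at 0. The 6 trophoblast markers summed to 12.9 to 19.4 and 17.6 to 27.2 TPM and the 5 neural markers to 24.8 to 28.7 and 21.9 to 31.7 TPM, with Sox1 called higher (change 0.85 ± 0.15, adjusted p = 0.0169). The part of these marker differences in the antioxidant results was not tested. The 10 most abundant genes held 107690 to 114617 TPM in wild-type and 117583 to 125342 TPM in mutant libraries, and mitochondrial transcripts 61923 to 69765 TPM and 68622 to 87059 TPM. A larger share for some transcripts lowers the TPM of all others, and the part of this in the lower calls was not tested beyond the rescaling given above.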

How the data were processed

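The deposited table gives TPM per gene and library to 2 decimals, made by the authors, and every library sums to 1000000 TPM, so depth and counting error are unknown. Trim Galore, STAR, RSEM, DESeq2 and the build mm10 are named in the submitters' processing notes, with no version, setting or strand mode stated. A VAHTS Universal kit was used on bead-captured mRNA, per the labels' protocols. All 10 columns were matched to samples by name, and 0 per-sample columns were left out.

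The 35 genes, the systems, the other pathway genes and the markers were chosen with earlier results of these data known. Values were taken as log2(TPM + 1), which understates changes of low genes, and 12797 genes passed the filter of 1 TPM on average. Libraries were averaged within each set. The comparison of genotypes, 2 sets against 3, used limma 3.58.1 in R 4.3.3 with trended empirical Bayes moderation (residual degrees of freedom 3, prior 4.01) and two-sided tests. Differences between sets of 1 genotype were tested in limma on all 10 libraries with 5 set groups. P-values were adjusted over all tested genes, and the fit was tested on simulated data. The main fit has genotype only and no block. Deviations of sets numbered alike in both genotypes had correlations of -0.16 and -0.09. Both rest on the same difference between the 2 wild-type sets, so they cannot decide whether sets were paired.

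Every one of the 35 genes called in any comparison and the 3 regulators have their value in each library in the text, the others their range or set means. Of the other pathway genes, up to 5 higher and 5 lower calls with the largest changes were named, with set means or library values. Positions come from GENCODE M21 (GRCm38, the assembly of mm10), to which 55141 identifiers were matched. Near copies were transcripts with at least 95% identity over at least 200 bases (BLAST 2.17.0). Of the 35 genes, 7 had one (Gpx4, Txn1, Prdx1, Prdx2, Sod1, Gstm1 and Gstp1), and copies other than Gstp2 and Gpx4-ps2 were under 3 TPM. Figures were drawn with matplotlib 3.10.9. Alternatives were another pseudocount, filter, scaling, block or variance model, leaving out each set and library and, chosen after seeing the data, a GC correction (lowess, span 0.3) and sums over near copies. A count model was not used because TPM are not counts.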

Additional observations from a re-analysis of the deposited data

Results flagged for a closer look

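Within a genotype, 1 library stood apart from the others in 4 of 70 groups of libraries examined. The nominal rate of such flags by chance is about 1 group in 20, and it was not measured in these data. Gpx8 read 3.94 TPM in library 2 of wild-type set 1 and 2.94 to 3.05 TPM in the other wild-type libraries. Prdx5 read 50.3 TPM in library 1 of wild-type set 2 against 42.4 to 43.1 TPM. Gstm1 read 127.4 TPM in the same library against 116 to 118 TPM. Mgst1 read 0.1 TPM in library 2 of mutant set 3 and was listed at 0 in the other mutant libraries. Leaving out library 1 of wild-type set 2 kept the Gstm1 call, and Gpx8, Prdx5 and Mgst1 had no call between genotypes.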

How the results depend on the processing

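The calls rested on few sets, and depth is unknown for these TPM. The 2251 recomputed values of single genes pool called and uncalled genes, and tests between genotypes and between sets. Of these, 1950 stayed on their side of the threshold, with the same sign where a fold change was recomputed. A call was lost in 241 and gained in 34, and 26 changed sign. An uncalled gene had no call to lose, so these pooled counts do not measure how stable the calls were. Of the 14 calls, all held with a pseudocount of 0.1, a mean of at least 5 TPM, robust moderation or all 10 libraries. Without a set block, fits over all 10 libraries count the libraries of a set as independent, so calls held there are no added support.

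The calls of the 34 genes, 4 higher and 10 lower in the text, were 1 and 2 with no filter, 2 and 5 with no variance trend, and 1 and 0 at a log2 fold change of at least 1. With quantile normalization 6 were lower. Over all genes the calls, 892 higher and 1350 lower in the text, were 250 and 559 with no filter, 2166 and 3103 over all 10 libraries with no block, and 106 and 193 at a log2 fold change of at least 1. With the set as a random block 2063 were lower. Leaving out 1 set or library gave 0 to 5 higher and 0 to 11 lower of the 34 genes, and 10 to 1005 higher and 32 to 1388 lower over all genes, with the lowest counts without a wild-type set. Members called among mutant sets numbered 6 to 10 and between wild-type sets 2 to 6 when 1 library was left out, and the latter were 3 with no filter and 2 with no variance trend.

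The set numbers and library numbers are shared only as numbers between genotypes. Correlations of same-numbered deviations were -0.16 and -0.09 for sets and -0.08 to 0.12 for libraries. With the set number as a replicate block, 1 of the 34 genes was higher and 2 were lower, with 209 higher and 362 lower over all genes, on fewer sets. With the library number as a replicate block over all 10 libraries the counts over all genes were 2054 and 2944, and the 14 calls held with 6 more. That fit also counts the libraries of a set as independent. With the set block the sign of Gclm (0.015) and Txn2 (-0.013) turned.

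Median changes moved with the scaling. Quantile normalization gave 0.37 for regulators, -0.29 for transferases, -0.00051 for the thioredoxin system, -0.23 for superoxide and hydrogen peroxide and -0.0103 for all members. Median-of-ratios rescaling gave -0.037 for the thioredoxin system and -0.051 for all members. A mean of at least 5 TPM gave -0.073 for glutathione peroxidases and -0.12 for all members. The GC correction gave 0.091 for peroxidases, 0.050 for selenoproteins and -0.124 for all members. Leaving out 1 set or library gave 0.020 to 0.30 for peroxidases, -0.37 to -0.25 for superoxide and hydrogen peroxide, 0.020 to 0.21 for selenoproteins and -0.15 to -0.064 for all members.

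Genes that changed sign were not called in any setting. Nfe2l1 was at 0.017 with quantile normalization, Hmox1 at -0.0075 with the GC correction, and Gclm at 0.029 with median-of-ratios rescaling, 0.037 with quantile normalization and 0.11 with the GC correction. Prdx4 was at 0.0047 with median-of-ratios rescaling, 0.036 with quantile normalization and 0.021 with the GC correction, and the GC correction gave -0.044 for Txn2 and -0.063 for Prdx5. When 1 set or library was left out the range was -0.0038 to 0.10 for Hmox1, -0.093 to 0.054 for Gclm, -0.013 to 0.049 for Txn2, -0.031 to 0.095 for Prdx5 and -0.0079 to 0.36 for Gstm5. The cause of these changes was not tested.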
